A study of Mus musculus with 6 samples.

Results

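The kappa light chain variable genes, whose symbols begin with Igkv, were described in 6 Nanopore single-cell libraries labelled as mouse spleen. Every symbol of that form in any of the 6 count matrices was taken, which gave 113 genes of the 20279 genes in the series. No measured level was used to choose them. The labels give the tissue as spleen and the animals as females, 10 weeks old, of the strain C57BL/6 by the series text; no transgene or treatment is labelled, and the labels do not say whether the replicates are separate animals.

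The libraries form 3 groups of 2. The 3′ group was made with the Chromium 3′ kit v3.1, which attaches the barcode beside the poly(A) tail and thus near the constant part of a light chain mRNA. The standard 5′ group was made with the 5′ kit v2, which attaches it at the template-switch end, near the variable part. The modified 5′ group used the same kit with 1 µl of 10 mM dNTP added at reverse transcription and at cDNA amplification, with the first extension lengthened from 45 min to 2 h and that of the amplification from 1 min to 3 min. The comparison asks how the protocol changes what long reads recover. For replicate 1 of each group the extraction text describes strained spleen and red cell lysis. For replicate 2 it describes pancreatic islets and removal of insulin cDNA, against the spleen label.

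An antibody kappa light chain is encoded by a variable (V) segment, a short joining (J) segment and a single constant gene, Igkc. In a developing B cell the RAG recombinase joins one of the many V segments to a J segment, and the V promoter then drives a transcript in which V and J are spliced to Igkc. V segments lie in both orientations, so joining deletes or inverts the DNA between. Most B cells keep a single productive light chain, kappa more often than lambda in mice. Antibody-secreting cells, which express the joining chain gene Jchain, carry far more light chain mRNA than resting B cells.

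The following ends of germline V segments are shown because each sequence stands for a pattern described below. They are the last 90 bases of the GENCODE M21 transcript models (build GRCm38, chromosome 6), written 5′ to 3′ on the gene's own strand. Capitals mark the stretch from the codon of the conserved cysteine, where the third complementarity-determining region begins, to the end of the segment. Igkv1-117 (chr6:68121046-68121827, plus strand) had the highest mean usage over the 6 libraries, and Igkv1-110 (chr6:68270485-68271267, plus strand) was its nearest copy. Igkv2-109 (chr6:68302427-68303158, plus strand) and Igkv4-51 (chr6:69681406-69681975, minus strand) were spread thinly over many cells. Igkv3-2 (chr6:70698449-70699067, plus strand) and Igkv5-39 (chr6:69900424-69900977, minus strand) were concentrated in few barcodes. Igkv3-11 (chr6:70553239-70553862, plus strand) is annotated as a pseudogene.
Igkv1-117: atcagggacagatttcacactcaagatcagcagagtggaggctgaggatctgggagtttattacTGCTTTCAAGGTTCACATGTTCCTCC
Igkv1-110: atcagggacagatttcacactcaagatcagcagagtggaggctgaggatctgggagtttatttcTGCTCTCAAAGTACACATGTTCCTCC
Igkv2-109: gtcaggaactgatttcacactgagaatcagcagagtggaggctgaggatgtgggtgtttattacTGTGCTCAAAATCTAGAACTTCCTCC
Igkv4-51: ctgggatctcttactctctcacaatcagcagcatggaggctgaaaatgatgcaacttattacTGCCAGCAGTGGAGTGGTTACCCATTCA
Igkv3-2: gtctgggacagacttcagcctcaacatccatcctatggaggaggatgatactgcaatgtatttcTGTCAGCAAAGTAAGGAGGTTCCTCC
Igkv5-39: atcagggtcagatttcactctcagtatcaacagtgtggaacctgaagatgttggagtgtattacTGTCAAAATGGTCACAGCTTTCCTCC
Igkv3-11: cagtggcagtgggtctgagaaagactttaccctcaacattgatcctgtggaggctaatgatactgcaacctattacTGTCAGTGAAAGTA

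Igkv1-117 and Igkv1-110 were 97.5% identical over the whole segment, and 4 of these 90 bases differed between them. Of those 4, 3 fell in the 26 bases from the cysteine codon. In Igkv3-11, codon 3 counted from the cysteine is an in-frame stop. Such closeness was common in the family: 49 of the 113 genes were at least 95% identical to their nearest annotated family member, and 44 shared more than 50% of their 31-base words with other Igkv genes. A read from one of these genes could have been counted for its copy, so the value of a single symbol is less certain than the sum over all Igkv genes.

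The files hold whole-number counts per gene and barcode, and cells were kept from 200 genes upwards if mitochondrial counts were 20% or less. They numbered 2331 and 4045 in the 3′ libraries, 861 and 3208 in the standard 5′ libraries and 2022 and 3111 in the modified 5′ libraries, always in the order replicate 1 and 2. Standard 5′ replicate 1 stood apart: 34.0% of its barcodes were kept, against 78.3% to 89.9% elsewhere, and it held 365826 counts in kept cells against 1198528 to 2474068. The B and T cell marker lists were detected whole in every library. Pancreas markers summed to 2.50 to 13.7 counts per 1000000 counts (CPM) in 5 libraries, with Ins1, Ins2 and Gcg at 0, and to 41.4 CPM in modified 5′ replicate 2, where 8 of 9 were detected. Erythroid markers summed to 39334 to 68762 CPM in the replicate 1 libraries and to 394 to 1284 CPM in replicate 2, and their part in the differences between replicates was not tested. Between 0 and 16 barcodes were shared by any pair of libraries.

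The kappa V genes were a small part of the counts, and larger in the 3′ libraries than in either kind of 5′ library. They took 0.0196% and 0.0274% of the counts of kept cells in the 3′ libraries. In the standard 5′ libraries they took 0.00929% and 0.0149%, and in the modified 5′ libraries 0.0133% and 0.0166%. Both 3′ values lay above all 4 values of the 5′ libraries, while standard and modified 5′ overlapped. These are shares of raw counts. The TMM normalization factors of the gene tests below were 1.16 and 1.21 in 3′ and 0.897 to 0.946 in the 5′ libraries. Dividing by them, which was not done here, would lower the 3′ shares and raise the 5′ shares. The separation thus stands for raw counts. Within a replicate number, modified 5′ was above standard 5′ by 0.00397 points in replicate 1 and by 0.00170 points in replicate 2. Without standard 5′ replicate 1 the mean difference of these protocols went from 0.00284 to 3.17e-05 points. Without 3′ replicate 2 the mean difference of standard 5′ minus 3′ went from -0.0114 to -0.00748 points, and that of modified 5′ minus 3′ from -0.00858 to -0.00465 points. The means were 0.0235% ± 0.00556 (SD, n = 2), 0.0121% ± 0.00397 (SD, n = 2) and 0.0149% ± 0.00236 (SD, n = 2). In reads these shares were 342 and 679 counts, 34 and 289 counts, and 159 and 349 counts, 1852 in all. No p is given for a sum over the family.

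Most of this signal was in B cells. Kept cells with at least 2 counts of Cd79a, Cd79b and Ms4a1 together, which encode the signalling pair of the B cell receptor and CD20, are called B cells here. They were 8445 of 15578 kept cells and held 86.3% of the Igkv counts, from 73.5% in standard 5′ replicate 1 to 93.7% in modified 5′ replicate 1. T cells, taken as cells with at least 2 counts of the T cell receptor and CD3 genes and none of the B cell genes, held 8 Igkv counts in 4553 cells. The B cell score was 2 in 67 to 328 cells of a library, and of those just inside the threshold 4.48% to 15.7% had an Igkv count. Cells just outside it, with a score of 1, had one in 2.94% to 9.49%. In the standard 5′ libraries the cells just outside had the higher share, 6.38% and 6.48% against 4.48% and 4.65%. In the 3′ and modified 5′ libraries the cells just inside had the higher share. B cells that also carried at least 2 T cell counts were 0.948% to 2.49% of B cells, and no doublet caller was run.

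Per B cell the order of the protocols was the same. The marker genes that define B cells here also differed between protocols. Cd79a and Cd79b were higher in standard 5′ than in 3′, with log2 fold changes of 1.14 and 0.985 over all kept cells. The same threshold may therefore take different cells in each protocol, which was not tested. B cells gave 3.87 and 4.16 Igkv counts per 10,000 counts in the 3′ libraries, 1.66 and 2.38 in the standard 5′ libraries and 2.27 and 2.76 in the modified 5′ libraries. The 3′ values did not overlap the others. At least 1 Igkv count was seen in 21.2% and 15.5% of B cells in the 3′ libraries (exact binomial 95% intervals 18.9 to 23.6% and 14.0 to 17.2%). The share was 6.35% and 9.18% in standard 5′ (4.07 to 9.38% and 7.89 to 10.6%) and 9.57% and 11.0% in modified 5′ (7.94 to 11.4% and 9.61 to 12.5%). In T cells, which should lack these transcripts, it was 0% to 0.338%, at median depths of 303 to 709 counts per cell against 351.5 to 560 in B cells. The T cell shares of 0 were 0 of 1154 cells, which allows up to 0.26% (3 counts of the total), and 0 of 289, which allows up to 1.04%. Within a replicate number, modified 5′ was above standard 5′ by 3.21 and 1.84 points, and the mean difference was 1.12 points without standard 5′ replicate 1 against 2.53 with it. The lowest B cell share was thus far above the T cell background. After thinning every B cell to 300 counts, the shares were 10.7% and 9.42%, 5.95% and 4.79%, and 5.77% and 6.23%. Shallower cells were left out, 9 to 142 per library. They were 110 of 362 B cells in standard 5′ replicate 1, against 9 of 1182 and 142 of 2085 in the 3′ libraries. The value of standard 5′ replicate 1 is thus that of its 252 deeper B cells. The 3′ values stayed above the 5′ values at equal depth, and the ratio between replicates within a protocol shrank. At that depth modified 5′ was below standard 5′ in replicate 1 and above it in replicate 2. The replicate 1 intervals overlapped widely, 4.47 to 7.31% in modified and 3.37 to 9.63% in standard 5′. Without the Jchain-high cells the order in replicate 1 was the other way, 6.56% in modified and 4.86% in standard 5′. Each thinning was 1 random draw. These intervals cover counting error only.

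**Figure D1:**
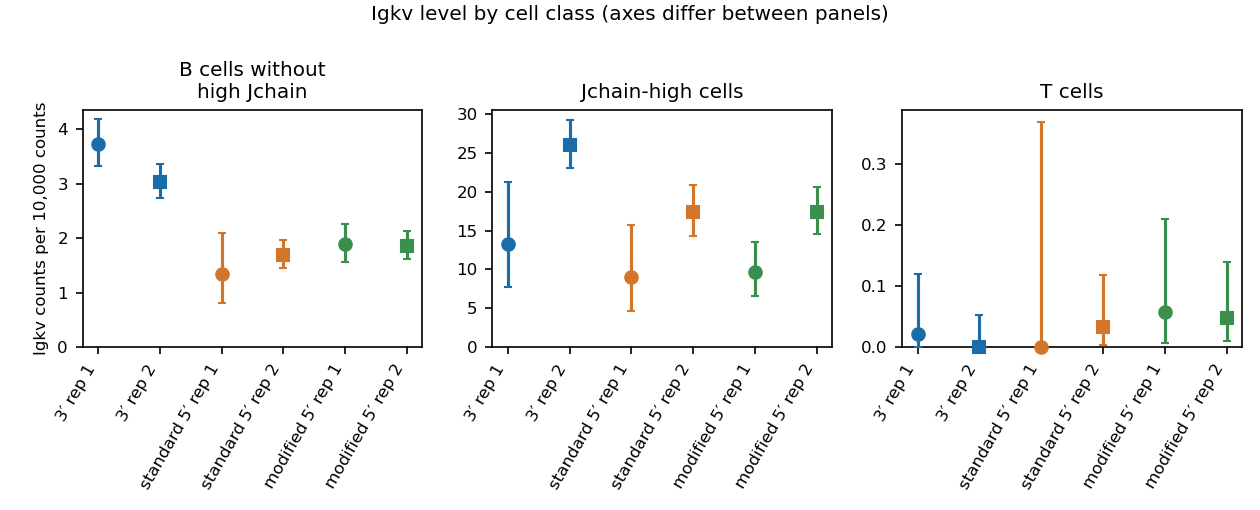
Igkv counts per 10,000 counts in B cells without high Jchain, in Jchain-high cells and in T cells. Each library is one point with its exact binomial 95% interval. Circles are replicate 1, squares replicate 2, and the vertical axes differ between panels. In B cells without high Jchain the 3′ libraries, at 3.73 and 3.04, lie above the other 4, which lie between 1.33 and 1.89.

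A few cells rich in Jchain carried a large part of the Igkv counts. Cells with at least 5 Jchain counts were 99 of the 15578 kept cells (0.636%) and held 587 of the 1852 Igkv counts (31.7%), although only 3.14% of all counts were theirs. Their part of a library's Igkv counts was 4.97% and 41.2% in 3′, 35.3% and 38.8% in standard 5′ and 20.8% and 38.1% in modified 5′, lowest in 3′ replicate 1 with 3 such cells. The 99 were 3 and 33 cells in the 3′ libraries, 8 and 20 in standard 5′ and 12 and 23 in modified 5′. Their Igkv level was 13.3 and 26.1 per 10,000 counts in 3′, 8.99 and 17.4 in standard 5′ and 9.63 and 17.4 in modified 5′. In each protocol the replicate 2 value was the higher one, and with so few cells the groups overlapped. With the Jchain-high cells left out, B cells gave 3.73 and 3.04 Igkv counts per 10,000 in 3′, 1.33 and 1.69 in standard 5′ and 1.89 and 1.85 in modified 5′, so the order of the protocols did not rest on them. The means of these B cells were 3.38 ± 0.488, 1.51 ± 0.255 and 1.87 ± 0.0260 (SD, n = 2 each).

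Igkc, the constant gene of the same transcripts, did not follow the V genes. It took 0.591% and 2.29% of kept counts in the 3′ libraries, 1.63% and 1.96% in standard 5′ and 1.59% and 2.00% in modified 5′. The lowest and the highest value were both in the 3′ group. In B cells without high Jchain, Igkc stood at 97.0 and 126 counts per 10,000 in 3′, 152 and 164 in standard 5′ and 149 and 147 in modified 5′, the reverse of the order of the V genes. For every 100 Igkc counts of kept cells there were 3.32 and 1.20 Igkv counts in 3′, 0.572 and 0.759 in standard 5′, and 0.833 and 0.829 in modified 5′. The V genes were therefore counted far less often than the constant gene in every library. Without the Jchain-high cells, the ratio in B cells was 3.84 and 2.42 in 3′, 0.880 and 1.03 in standard 5′ and 1.27 and 1.26 in modified 5′. In both sets of cells the modified 5′ values lay above the standard ones. Over all kept cells the mean difference from 3′ was -1.59 for standard and -1.43 for modified 5′, and -0.536 and -0.370 without 3′ replicate 1. The lambda light chain showed another picture: 3.41 and 6.41 Iglv counts per 100 Iglc counts in 3′, 1.88 and 4.91 in standard 5′ and 6.05 and 3.71 in modified 5′, with the 3 groups overlapping.

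Within the B cells, the share with an Igkv count was higher in cells with more Igkc from 1 to 5 Igkc counts upwards in every library. From 0 to 1 to 5 Igkc counts it was lower in 3 of the 4 libraries made with the 5′ kit and higher in the other and in both 3′ libraries. Where a B cell had more than 100 Igkc counts, 85.7% to 100% of the cells of a library had an Igkv count, although such cells numbered 1 to 19 per library. Where Igkc was 0, the share was 4.27% to 9.17%, and the 3′ libraries (5% and 4.27%) were not above the 5′ libraries (5.33% to 9.17%). At 1 to 5 Igkc counts it was 17.5% and 11.7% in 3′ against 1.89% to 6.74% in the 5′ libraries. At 6 to 20 Igkc counts it was 25.2% and 17.3% against 7.88% to 10.7%. At 21 to 100 Igkc counts it was 47.6% and 30.6% against 14.3% to 22.2%, and above 100 the groups overlapped. The higher share in 3′ libraries was thus seen in B cells with 1 to 100 Igkc counts. Igkc itself was counted at different levels between protocols, so equal Igkc counts need not mean equal light chain mRNA.

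**Figure D2:**
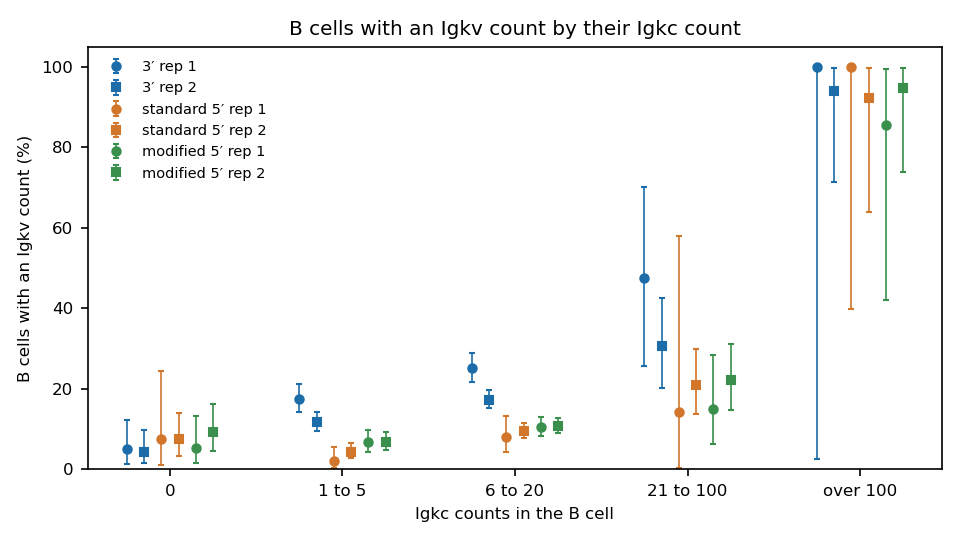
Share of B cells with at least 1 Igkv count (%), by the Igkc count of the cell, one point per library with its exact binomial 95% interval. At 6 to 20 Igkc counts the 3′ libraries stand at 25.2% and 17.3% and the others at 7.88% to 10.7%, and above 100 Igkc counts every library is at 85.7% or higher.

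B cells with more kappa than lambda constant counts also had more kappa V counts. Igkv stood at 4.15 per 10,000 in B cells with more Igkc than Iglc and at 2.45 in those with more Iglc than Igkc in 3′ replicate 1, and at 4.58 and 1.76 in 3′ replicate 2. The values were 1.79 and 0.996 in standard 5′ replicate 1, and 2.54 and 1.50 in replicate 2. They were 2.47 and 1.50 in modified 5′ replicate 1, and 2.94 and 1.69 in replicate 2. The kappa-rich cells were higher in 6 of 6 libraries, but the lambda-rich cells, 45 to 236 per library, still had an Igkv count in 4.44% to 13.4% of cells, above the T cell share.

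Usage, the share of one gene among all Igkv counts of a library, was spread over many genes. Of the 113 genes, 111 had a count in kept cells, 14 were seen in all 6 libraries and 12 in a single one; Igkv1-132 and Igkv13-55-1 had counts only in barcodes that were not kept. The median gene had 10 counts in all, and 29 genes had 1 to 3. The number of symbols seen in a library, all barcodes included, was 85 and 95 in 3′, 32 and 72 in standard 5′, and 62 and 69 in modified 5′. The library with the fewest Igkv counts, standard 5′ replicate 1, had the fewest symbols and 3′ replicate 2, with the most counts, had the most. Between these the orders differed: modified 5′ replicate 2 had 353 counts in 69 symbols and 3′ replicate 1 had 347 counts in 85 symbols, over all barcodes. The 12 genes of highest mean usage took 42.5% of it, and all 12 were also the top 12 per kilobase of transcript model. By the number of cells in place of counts, 9 of them stayed in the top 12.

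Igkv1-117 had the highest mean usage, 7.86%. Its counts were 15 and 22 in the 3′ libraries, 6 and 18 in standard 5′ and 13 and 26 in modified 5′. As usage this was 4.39% and 3.24% in 3′, 17.7% and 6.23% in standard 5′ and 8.18% and 7.45% in modified 5′. The first place rested on standard 5′ replicate 1: in an average without that library, chosen after seeing the data, Igkv1-117 stood at 5.90% and Igkv2-109 at 5.97%. The 17.7% was 6 of 34 counts in the shallowest library, and both 3′ values lay below the other 4. The counts came from 68 cells, and 33.0% of them were in Jchain-high cells. Igkv1-110, its near copy, had counts of 14 and 18, 2 and 15, and 7 and 4, in 46 cells, a mean usage of 3.89%. Its usage was 4.09% and 2.65% in 3′, 5.88% and 5.19% in standard 5′ and 4.40% and 1.15% in modified 5′, so both standard 5′ values lay above the other 4, one of them from 2 counts.

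Igkv2-109 was the gene seen in the most cells. Its counts were 14 and 29 in 3′, 2 and 15 in standard 5′ and 15 and 24 in modified 5′, or 99 counts in 91 cells with at most 3 in 1 barcode. Its usage was 4.09% and 4.27%, 5.88% and 5.19%, and 9.43% and 6.88%, so that the modified 5′ values were the highest and the 3′ values the lowest. None of its counts was in a Jchain-high cell. Igkv4-51 was like it in this: its counts of 8 and 9, 1 and 7, and 9 and 9 came from 43 cells with 1 count each, none of them Jchain-high. Igkv5-48, with 39 counts in 38 cells, and Igkv4-81, with 36 counts in 34 cells, also had none in Jchain-high cells. Of the 59 genes with at least 10 counts, 14 had none in Jchain-high cells, against the 31.7% such cells held over the whole family.

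Igkv3-2, Igkv4-55 and Igkv5-39 left the top 12 when cells were counted in place of reads. Igkv3-2 had 6 and 42 counts in 3′, 1 and 15 in standard 5′ and 2 and 2 in modified 5′, in 21 cells, and 24 of the 42 came from 1 barcode. Jchain-high cells held 76.5% of them. Igkv4-55 had 2 and 28, 1 and 13, and 3 and 9 counts in 18 cells, 87.5% of them in Jchain-high cells. Both genes were higher in replicate 2 of the 3′ and standard 5′ pairs, where Jchain-high cells were also more numerous. Igkv5-39 had 16 and 25 counts in 3′, none in standard 5′, and 4 and 5 in modified 5′. These came from 3 and 6 cells, no cells, and 1 and 3 cells, and in each 3′ library 13 counts were those of 1 barcode. Igkv14-111 had 6 and 9, 1 and 21, and 4 and 15 counts, of which 13 were in 1 barcode of standard 5′ replicate 2. Igkv1-135 had 5 and 17, 1 and 2, and 10 and 6 counts, and the 10 of modified 5′ replicate 1 were all in 1 barcode. Igkv17-121, the remaining one of the 12, had 11 and 31, 1 and 13, and 2 and 12 counts in 54 cells. Of the 59 genes with at least 10 counts, 18 had more than 50% of them in Jchain-high cells, and 10 had more than 50% in 1 barcode.

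**Figure D3:**
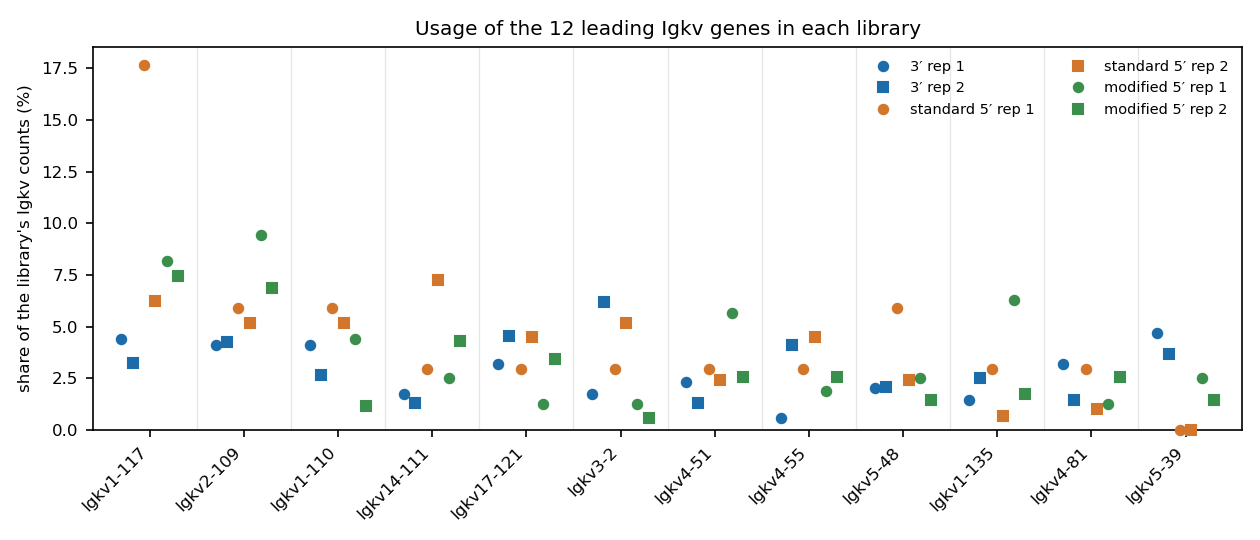
Usage of the 12 leading Igkv genes, as a percentage of the Igkv counts of each library, one point per library; circles are replicate 1 and squares replicate 2. Igkv1-117 reaches 17.7% in standard 5′ replicate 1, where it is 6 of 34 counts, and Igkv5-39 is at 0 in both standard 5′ libraries.

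The barcodes with the most Igkv counts mostly carried a single V gene. At least 5 Igkv counts were found in 45 barcodes, 1 and 23 in the 3′ libraries, 0 and 10 in standard 5′ and 2 and 9 in modified 5′. All 45 were Jchain-high. In 38 of them at least 80% of the Igkv counts had 1 symbol. The largest held 31 counts in modified 5′ replicate 2, of which 26 were of Igkv3-11 and 5 of Igkv3-4, beside 1195 Igkc counts. The next held 24 counts, all of Igkv3-2, beside 2581 of Igkc, and 22 counts, 21 of them of Igkv12-41, beside 2366 of Igkc, both in 3′ replicate 2. A barcode of 21 counts was all Igkv2-137, a gene that overlaps the annotated non-coding RNA Gm42889 on the same strand. A barcode of 19 counts held 10 of Igkv8-16 and 9 of Igkv1-117, genes of different families. Igkv counts were 0.2385% to 2.53% of the Igkv and Igkc counts together in these 45 barcodes. The V gene was thus counted rarely even where light chain mRNA was abundant.

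**Figure D4:**
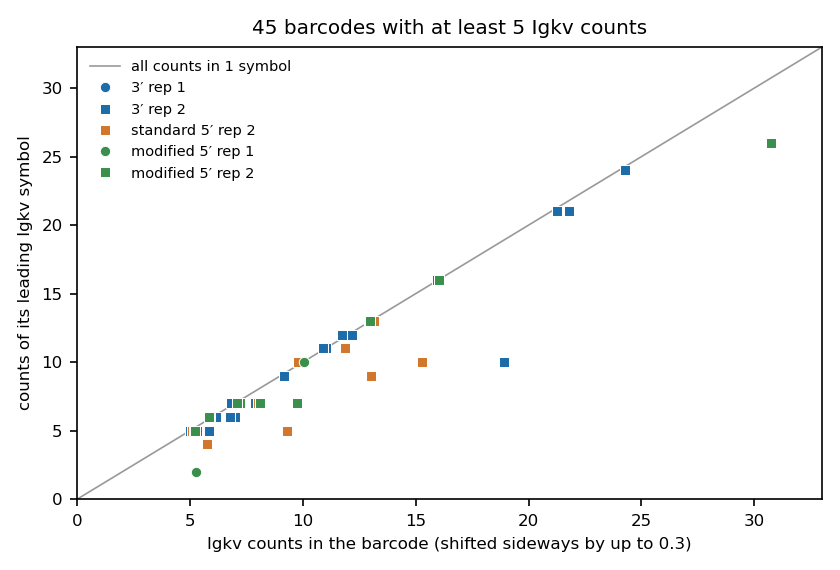
Counts of the leading Igkv symbol against all Igkv counts in the 45 barcodes with at least 5 Igkv counts, one point per barcode, colour and shape by library; the line marks barcodes in which every count has 1 symbol. Most points lie on or near the line, and the barcode with 31 counts, 26 of them of its leading symbol, lies below it.

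Among B cells with at least 2 Igkv counts, which were 191 of 8445 B cells, a second symbol was common. Of the 191, 78 (40.8%) had all of their Igkv counts in 1 symbol. This share was 15 of 44 and 24 of 67 cells in 3′, 2 of 2 and 7 of 22 in standard 5′, and 7 of 20 and 23 of 36 in modified 5′. It was 71.4% in Jchain-high cells (55 of 77) and 32.1% in B cells that were not Jchain-high (45 of 140). The 2 cells of standard 5′ replicate 1 set the sign of the protocol difference: without that library, standard 5′ was 3.14 percentage points below 3′ where it had been 30.9 points above. Over all B cells, 964 had 1 symbol, 103 had 2, 8 had 3 and 2 had 4. The 113 B cells with more than 1 symbol held 139 pairs of symbols, of which 22 (15.8%) were of the same family. How many second symbols were reads given to a near copy or to another cell was not tested.

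Used genes lay along the whole locus, from 67555497 to 70704177 on chromosome 6, with Igkc at 70726435 to 70726966. GENCODE M21 annotates 160 Igkv genes there, of which 47 had no row in the files, 10 of them functional genes and 37 pseudogenes. Split by rank of position into 3 sections, the distal section (35 genes with a row, farthest from Igkc) took 43.8% of mean usage, the middle section (38 genes) 19.1% and the proximal section (40 genes) 37.1%. The middle section was lowest in 6 of 6 libraries, at 14.9% to 23.8%. The leading 5 genes, Igkv1-117, Igkv2-109, Igkv1-110, Igkv14-111 and Igkv17-121, start 2424 to 2690 kb from Igkc, and Igkv3-2 starts 28.0 kb from it. The 46 genes on the strand of Igkc held 50.3% of the counts and the 67 on the other strand, which join by inversion, 49.7%. Family 4, with 30 genes, took a mean usage of 18.1%, and family 1, with 11 genes, 16.3%. Family 3 (9.84%), family 6 (8.84%) and family 2 (8.72%) followed.

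**Figure D5:**
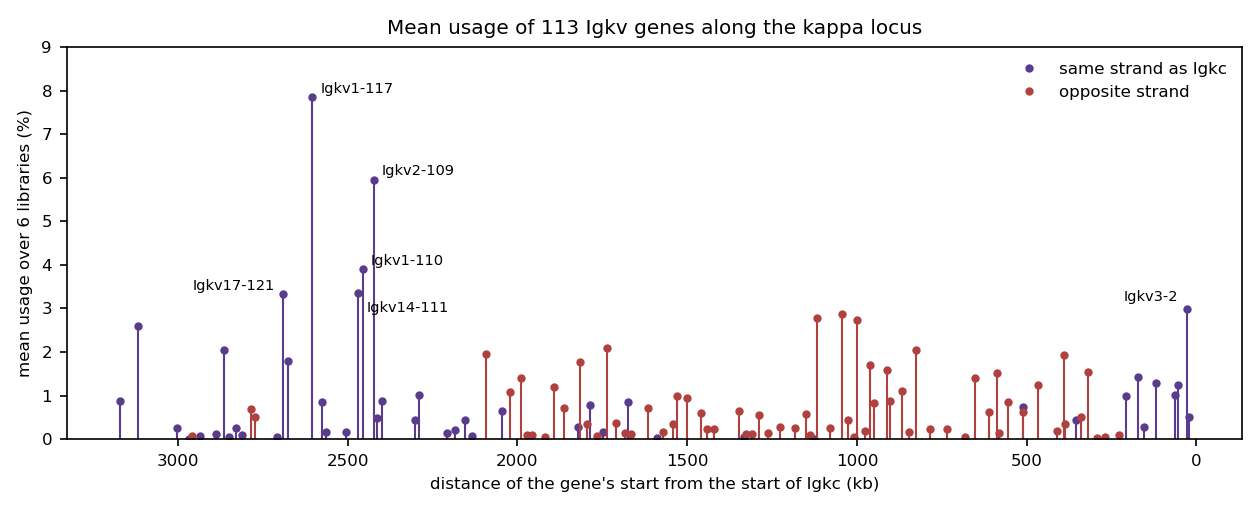
Mean usage over the 6 libraries (%) of the 113 Igkv genes against the distance of the gene's start from the start of Igkc (kb), coloured by strand relative to Igkc. The highest bars, Igkv1-117 at 7.86% and Igkv2-109 at 5.96%, stand in the distal section, and the middle section holds 19.1% of usage.

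Pseudogenes, V segments annotated as unable to give a functional chain, were 23 of the 113 genes and held 158 counts (8.53%). Their share was 8.19% and 5.74% in 3′, 2.94% and 6.23% in standard 5′ and 6.92% and 17.5% in modified 5′. The 17.5% included the 26 counts of Igkv3-11 in 1 barcode. Igkv3-11, the segment with the stop codon shown above, had 29 counts in 4 cells and is 98.8% identical to Igkv3-6, a pseudogene with no row in the files. Igkv4-73 and Igkv2-107 had 21 counts each in 20 cells each, and none of these cells was Jchain-high.

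Libraries of one protocol were only moderately alike in usage. Across the 113 genes, Pearson's r of log2(usage percent + 0.05) was 0.435 to 0.578 for the 3 pairs of the same protocol (median 0.503). It was 0.325 to 0.460 for the 6 pairs with the same replicate number (median 0.418), and 0.342 to 0.524 for the other 6 pairs (median 0.403). These ranges overlapped. The points are genes within the same libraries, many of them with few counts and shared sequence, so the values are a description.

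Single V genes were tested with edgeR's quasi-likelihood test over all genes, Benjamini-Hochberg adjusted, and 13 of the 113 passed the low-count filter. They held 41.5% of the Igkv counts, and passed because they were high somewhere. Between standard 5′ and 3′ libraries none of the 13 was higher and 1 was lower, while of all 11546 genes tested 12.5% were higher and 10.8% lower. The median log2 fold change was -0.32 over the 13 genes and -0.0086 over all genes, with 8 of the 13 below 0. The gene that fell was Igkv5-39, at 9.16 and 10.1 CPM in 3′, 0 and 0 CPM in standard 5′ and 3.34 and 2.38 CPM in modified 5′. Taking a floor of 3 counts over the standard 5′ group, it was at least 7.46-fold lower there than in 3′ (fitted log2 fold change -6.81 ± 1.35 SE, adjusted p = 0.0106, 2 libraries per group, edgeR). In each 3′ library 13 of its counts came from 1 barcode. The floor, here and below, does not allow for such clustering of counts in single cells. Without the Jchain-high cells, and with barcodes counted in place of reads, Igkv5-39 no longer passed the filter, and no V gene was lower in either fit.

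With the replicate number as a block, 1 V gene was higher and 2 were lower in standard 5′ than in 3′. Igkv14-111 was higher (log2 fold change 1.53 ± 0.60, adjusted p = 0.0459, edgeR), with 13 of its 21 counts in standard 5′ replicate 2 from 1 barcode. Igkv10-96 (-2.71 ± 0.93, adjusted p = 0.0241) and Igkv5-39 (adjusted p = 0.00076) were lower.

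Between modified and standard 5′ libraries no V gene was higher or lower by edgeR, and neither was any other gene (0% higher and 0% lower of 11546). At an unadjusted p under 0.05 there were 2 V genes by edgeR and 1 by DESeq2, and DESeq2 called none after adjustment. Igkv5-39 was at least 2.10-fold higher in modified 5′ against the floor (adjusted p = 0.996, edgeR). The median log2 fold change was -0.14 over the 13 genes and -0.0065 over all genes.

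Between modified 5′ and 3′ libraries no V gene was called, while 10.2% of all genes were higher and 8.19% lower. At an unadjusted p under 0.05 there were 3 V genes by edgeR and 1 by DESeq2, which gave none of the 13 an adjusted p. The median was -0.48 over the 13 genes, 9 of them below 0, and -0.018 over all genes. The replicate block made 2 calls, both lower in modified 5′. Igkv3-2 (-2.79 ± 0.71, adjusted p = 0.00309, edgeR) had 42 counts in 3′ replicate 2, of which 24 were in 1 barcode. Igkv12-46 (-1.98 ± 0.69, adjusted p = 0.0285, edgeR) had 13 and 20 counts in 3′, 0 and 4 in standard 5′ and 2 and 3 in modified 5′, in 37 cells. The comparisons with 3′ share the 3′ libraries.

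In B cells alone, 10 V genes passed the filter. In standard 5′ against 3′, none was higher and 2 were lower, where of 9415 genes 13.7% were higher and 16.6% lower, so the count is near the background. Igkv5-39 stood at 19.9 and 14.0 CPM in 3′, 0 and 0 in standard 5′ and 6.10 and 4.23 in modified 5′, at least 6.56-fold lower in standard 5′ than in 3′ (adjusted p = 0.00084, edgeR). Igkv10-96 had 12 and 17 counts in 3′, 0 and 2 in standard 5′ and 2 and 10 in modified 5′, which is 14.9 and 13.2 CPM, 0 and 1.89 CPM, and 3.05 and 8.45 CPM. It fell in standard 5′ (-2.68 ± 0.89, adjusted p = 0.0208, edgeR), with both 3′ libraries above both standard 5′ libraries. Without the Jchain-high cells only 3 V genes passed the filter, and none was lower. The number of V genes lower also changed when a library was left out. Between modified and standard 5′ B cells no V gene was called, and 0.0425% of all genes were higher and 0.0319% lower. At an unadjusted p under 0.05 there were 3 by edgeR and 1 by DESeq2, which called none.

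Replicate 2 against replicate 1, with the protocol in the model, gave no V gene higher or lower, where 0.65% of all genes were higher and 2.93% lower. At an unadjusted p under 0.05 there were 3 by edgeR and 0 by DESeq2, which called none. The smallest adjusted p was 0.0847, for Igkv4-55 (log2 fold change 1.99 ± 0.63, edgeR), followed among those named by Igkv3-2 (1.69 ± 0.58, adjusted p = 0.132).

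Of 16 listed light chain genes, 9 had a row and 8 were tested; no Igkj gene had a row. In B cells of the standard 5′ against the 3′ libraries 4 were higher and none lower: Igkc (0.73 ± 0.23, adjusted p = 0.0166, edgeR), the lambda constant genes Iglc1 and Iglc3, and the lambda V gene Iglv1. Over all kept cells Iglc1 was the one called in that comparison, Iglc3 and the surrogate light chain relative Vpreb3 were higher in modified 5′ than in 3′, and none was called between the 5′ protocols. Iglc1 was lower in B cells of modified than of standard 5′. Igkc was higher in replicate 2 than in replicate 1 (0.79 ± 0.21, adjusted p = 0.0234, edgeR) and Iglc1 lower. All 6 receptor partners were tested over all kept cells, and Cd79a and Cd79b, which pass on the receptor's signal, were higher in both 5′ groups than in 3′, with none lower. Of 14 listed regulators of kappa transcription, 12 were tested. The transcription factor genes Irf8, Spi1 and Tcf3 were higher and Pou2f1 lower in standard 5′ than in 3′, Spi1 and Tcf3 were higher in modified 5′, and none was called between the 5′ protocols. These lists are read against the shares of all genes given above.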

How the data were processed

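The authors deposited raw counts per gene symbol and barcode for 6 libraries, whole numbers with no normalization. The build mm10 and, for replicate 2, Seurat are named per the submitters' processing notes. Aligner, annotation, use of strand, collapsing by molecular identifier and the calling of cells were not given in the sources used here. Counts in kept cells ranged from 365826 to 2474068 per library and from 332 to 606 per cell in the median.

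Members and gene lists were chosen with earlier results of these data known. Genes were named where they were among the 12 of highest mean usage, were called by a test, or stood on a list; others were chosen after their values were seen. Counts were summed over kept cells or B cells and fitted with edgeR 4.0.16 (R 4.3.3): TMM, filterByExpr, all 6 libraries, protocol as the term, Benjamini-Hochberg at 0.05 over all genes. The fit was tested on simulated data. The genes changed there had a higher mean CPM than any V gene tested, and clustering of counts in single barcodes was not simulated. That test thus does not cover the V genes. DESeq2 1.42.0, no filter, other cell sets, barcode counts, left-out libraries and a replicate block were alternatives. Libraries of 1 number share their extraction text and deviated together (correlations 0.618, 0.507 and 0.427 over 6804 genes). The number was therefore read as a pairing in the differences within a replicate number and in the replicate block. The main fits between protocols left it out. With no label for separate animals, p-values measure the spread between these libraries. No library pair agreed within sampling noise (smallest chi-square per degree of freedom 3.57). Positions, types and sequences are from GENCODE M21, matched by symbol. Intervals cover counting error, at 95%.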

Additional observations from a re-analysis of the deposited data

Results flagged for a closer look

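Igkv counts were also present in barcodes that were not kept, which no comparison used. There were 5 counts in 417 such barcodes and 24 in 919 in the 3′ libraries, 26 in 1671 and 10 in 541 in standard 5′, and 5 in 562 and 4 in 348 in modified 5′. In standard 5′ replicate 1 these 26 stand beside 34 in kept cells. Igkv1-135 moved in opposite directions in the replicates between modified 5′ and 3′, a difference in log2(CPM + 1) of 1.27 in replicate 1 and -1.03 in replicate 2. That difference between replicates was not tested, and all 10 counts of modified 5′ replicate 1 were in 1 barcode.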

How the results depend on the processing

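The mean differences between protocols in Igkv share, in Igkv per Igkc and in B cells with a count kept their sign under each alternative run. This included each left-out library. Within replicate 1, thinning put modified 5′ below standard 5′ in B cells with a count, 5.77% against 5.95%. Without the Jchain-high cells it was above, 6.56% against 4.86%. The size of the mean differences moved with single libraries. Over left-out libraries the share differences ran from -0.0153 to -0.00748 (standard 5′ minus 3′), from 3.17e-05 to 0.00564 (modified minus standard 5′, lowest without standard 5′ replicate 1) and from -0.0125 to -0.00465 (modified 5′ minus 3′). Igkv per 100 Igkc ran from -2.65 to -0.536, 0.0717 to 0.259 and -2.48 to -0.370 in the same order, smallest without 3′ replicate 1 against 3′. B cells with a count ran from -13.4 to -7.78, 1.12 to 3.94 and -10.9 to -5.25 points. B cells alone gave share differences of -0.0200 (standard 5′ minus 3′) and -0.0150 (modified 5′ minus 3′) percentage points, against -0.0114 and -0.00858. Igkv per 100 Igkc, modified minus standard 5′, was 0.309 over all kept cells without Jchain-high cells, against 0.165 with them. Thinning took the differences in B cells with a count to -4.67 (standard 5′ minus 3′), 0.630 (modified minus standard 5′) and -4.04 (modified 5′ minus 3′) points, from -10.6, 2.53 and -8.05. For B cells with 1 symbol the difference ranged from -3.14 to 65.0 points (standard 5′ minus 3′) and from -50.6 to 17.6 points (modified minus standard 5′) over left-out libraries, reversing without standard 5′ replicate 1, which has 2 such cells.

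Calls of single V genes moved with most settings, and the cause was not tested. With no low-count filter, standard 5′ against 3′ gave 1 higher and 4 lower, modified 5′ against 3′ gave 2 higher and 4 lower, B cells of standard 5′ against 3′ gave 1 higher and 5 lower, and replicate 2 gave 2 higher. The replicate block gave 1 higher and 2 lower in standard 5′ and 2 lower in modified 5′ against 3′, and changed no other count. All barcodes gave 2 lower in standard 5′ and 1 lower in modified 5′ against 3′. Without Jchain-high cells 0 were lower in standard 5′, but only 6 V genes passed the filter, and 3 in B cells. With barcodes counted 0 were lower, of 4 that passed, and of 3 in B cells. The main fits tested 13, and 10 in B cells. A B cell threshold of 3 marker counts left 1 lower, of 7 tested. Leaving out a library gave 0 to 1 lower in standard 5′ (0 without its replicate 2), 0 to 1 higher and 0 to 2 lower in modified 5′, 0 to 1 higher and 0 to 4 lower in B cells of standard 5′, all against 3′, and 0 to 3 higher in replicate 2; a lone sample is then assumed to vary like the other groups. DESeq2's filter gave adjusted p-values to 0 of 13 V genes in standard and in modified 5′ against 3′ and to 1 of 10 in B cells of standard 5′ against 3′, so these are not compared. Depth limits what is seen: 34 counts in standard 5′ replicate 1 leave most V genes at 0 or 1.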
